A study of Homo sapiens with 8 samples.

Results

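TXNIP, the arrestin-domain genes ARRDC2, ARRDC3 and ARRDC4 and the glucose transporter genes SLC2A1 and SLC2A3 were followed through a 4-thiouridine (4sU) pulse and chase in THP-1 cells. They were taken by name, 6 of the 15378 genes with reads, and each was measured on the 3′ UTR segment with the largest summed total count. THP-1 is an established human monocytic leukaemia line with a KMT2A-MLLT3 fusion gene. In SLAM-seq, 4sU enters newly made RNA, is alkylated with iodoacetamide after extraction and is read as a T-to-C change, so that converted reads, called labelled here, mark RNA made during the pulse. Cells in 7 conditions were given 30 µM 4sU for 12 h with the medium renewed every 3 h, were washed in cold PBS, and were moved to medium with 3 mM uridine for a chase of 0 h, 20 min, 40 min, 1 h, 2 h, 8 h or 12 h. The remaining condition is a library labelled as having had no 4sU. All 8 conditions had 1 library each, the labels name no other agent, and they do not tell whether the chase times were separate cultures. Differences between 2 libraries therefore have no replicate check. Intervals of levels, of their ratios and of labelled shares cover counting error alone. Those of half-lives and their ratios also take in scatter of the libraries about the fit, where it exceeded counting error. Series of 7 values are given in the order of the chase, from the end of the pulse to 12 h.

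TXNIP encodes a protein that binds thioredoxin and restrains glucose uptake by promoting the removal of glucose transporters from the cell surface. It belongs to the α-arrestins, adaptor proteins that recruit NEDD4-family ubiquitin ligases to membrane proteins, and ARRDC2, ARRDC3 and ARRDC4 are its relatives. SLC2A1 and SLC2A3 encode GLUT1 and GLUT3, the basal glucose transporters of most cells and of cells with a high glucose demand. TXNIP and ARRDC4 are textbook targets of the glucose-sensing transcription factors MondoA (MLXIP) and ChREBP (MLXIPL), which act with their partner MLX on the carbohydrate response element, a pair of E-box-like sequences 5 bases apart.

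The promoters of TXNIP and ARRDC4 are shown because these are the pair with that known input. They are 300-base windows on GRCh38.p14 credited to RefSeq, from 250 bases before to 50 bases after an annotated start, in transcript direction. Capitals mark matches on either strand to the carbohydrate response element (CACGNG, 5 bases of any kind, CACGNG), to the E-box CACGTG, which can form part of that element, and to the CCAAT box. The TXNIP window lies on the minus strand at chr1:145996530-145996829 and the ARRDC4 window on the plus strand at chr15:97960453-97960752.
TXNIP: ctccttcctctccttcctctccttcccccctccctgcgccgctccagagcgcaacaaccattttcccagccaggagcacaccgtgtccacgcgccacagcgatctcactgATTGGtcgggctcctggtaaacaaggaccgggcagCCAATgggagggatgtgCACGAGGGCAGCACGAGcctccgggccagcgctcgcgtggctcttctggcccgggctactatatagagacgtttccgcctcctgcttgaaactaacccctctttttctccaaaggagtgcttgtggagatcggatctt
ARRDC4: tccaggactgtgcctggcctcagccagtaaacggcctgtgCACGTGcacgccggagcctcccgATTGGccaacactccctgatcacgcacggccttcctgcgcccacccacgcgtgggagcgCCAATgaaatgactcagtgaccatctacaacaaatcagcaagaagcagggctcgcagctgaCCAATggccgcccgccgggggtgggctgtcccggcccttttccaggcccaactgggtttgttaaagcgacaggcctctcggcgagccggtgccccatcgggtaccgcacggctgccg

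The TXNIP window shown held a full carbohydrate response element at positions -88 to -72 from the start, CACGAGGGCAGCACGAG. Of 35116 RefSeq windows of this length, 20 (0.057%) held a match, and among the windows of the genes studied here this was the only match. SLC2A3 had no window. Only this order of letters was searched, so a pair of E-box-like sequences written otherwise would be missed, in ARRDC4 as in other genes. A second annotated TXNIP start, with its window at chr1:145995695-145995994, held none of the 3 motifs. The ARRDC4 window held a single E-box at -210 to -205, a sequence present in 7.26% of all windows. CCAAT boxes, present in 34.6% of windows, occurred 2 times in the TXNIP window shown and 3 times in that of ARRDC4. Single CCAAT boxes were found in windows of SLC2A1, ARRDC3 and ARRDC2. These are matches of letters in short windows, and binding was not measured.

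The 3′ UTRs were searched for ATTTA, the core of AU-rich elements, which are known to recruit proteins that speed mRNA decay. GENCODE 29 annotates 3′ UTRs of 1416 bases for TXNIP, 1136 for ARRDC2, 2676 for ARRDC3, 2651 for ARRDC4, 1666 for SLC2A1 and 2183 for SLC2A3. ATTTA occurred 7 times in ARRDC3, 7 times in ARRDC4, 3 times in SLC2A3, 1 time each in TXNIP and SLC2A1 and 0 times in ARRDC2, against a median of 2 in 9266 genes. Per 1000 bases of 3′ UTR this was 2.62 in ARRDC3, 2.64 in ARRDC4, 1.37 in SLC2A3, 0.71 in TXNIP and 0.60 in SLC2A1, against a median of 1.73, so that SLC2A3 lay above the median gene by count and below it by density. The longer form TTATTTATT was found in SLC2A3 alone among the 6 genes, and in 9.01% of all these genes. The 30-base stretches below are from GRCh38 and carry ATTTA in capitals; those of ARRDC3 (minus strand, chr5:91370777-91370806), SLC2A3 (minus strand, chr12:7920926-7920955) and TXNIP (minus strand, chr1:145993410-145993439) are shown because these genes had a high, an intermediate and a low count of it.
ARRDC3: ccaattgtggATTTATTTAcaaacatcaaa
SLC2A3: aacttgagttttATTTAttttatcctctgg
TXNIP: ggagaagagccaATTTAacaaactaggaag

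Gene counts summed to 2917157 reads in the library without 4sU and to between 8303111 (12 h) and 11227150 (8 h) in the chase libraries. The labelled part of all gene reads was 0.0121% without 4sU, between 30.1% and 30.7% from 0 h to 1 h, 27.1% at 2 h, 10.8% after 8 h and 5.52% after 12 h. The library without 4sU stood apart from the others: 16.1% of 10644 genes were at least 2-fold above the 0 h library in total level and 22.1% at least 2-fold below it, and the 8 monocytic markers summed to between 232.4 and 958.3 CPM (counts scaled to a common library size) over the 8 libraries, with LYZ at 45.9 CPM without 4sU and 441.2 CPM at 0 h. All 8 monocytic markers had reads. Of 10 markers of other cell types, 8 had reads, they summed to between 3.95 and 7.24 CPM, and CD3E and HBB were at 0. None of the 6 genes differed by 2-fold in total level between the library without 4sU and 0 h, and none had a labelled read there. For SLC2A3 (14 reads there) and ARRDC4 (24 reads) this is a weak statement. Their 95% counting intervals, log2 -1.57 to 0.23 and -1.21 to 0.15, reach past 2-fold. Their lack of labelled reads allows shares of up to 21.4% and 12.5%. Levels without 4sU are given below as values and enter no trend.

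TXNIP had the most reads of the 6 genes, in a protocol that counts transcript ends and so does not scale with length. The labels of the count tables name its segment by a transcript (ENST00000369317, hg19 chromosome 1, start 145441219, plus strand) that GENCODE 29 does not list, and the symbol was assigned from knowledge of that identifier. The distance from its segment to those of the neighbours HJV and POLR3GL on hg19 differed by 56 and 12 bases from the distance of the TXNIP 3′ UTR to the same neighbours on GRCh38, and the segment is named as the 8th exon of a gene with 8 coding exons. The total level was 388.2 CPM without 4sU, and 369.4, 343.7, 309.4, 296.7, 319.5, 256.1 and 234.8 CPM in the chase. It was highest at the end of the pulse among the chase libraries and lowest at 12 h, with a small upturn at 2 h. The 12 h library stood at 0.64 times the 0 h library, a log2 ratio of -0.65 (95% counting interval -0.74 to -0.57). That interval does not cover the choice of scaling. Scaled by the plain library total, the log2 ratio was -0.50 at 12 h, and -0.34 in place of -0.53 at 8 h.

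Most TXNIP reads were labelled at the end of the pulse, and the label left in an uneven course. Labelled reads made up 60.3% of TXNIP reads at 0 h (95% exact binomial interval 58.6% to 62.0%), and then 59.9%, 61.8%, 51.4%, 27.7%, 1.81% and 1.01%. The share was level for 40 min and then dropped by more than 2-fold between 40 min and 2 h. The median gene was level over the same 40 min, with 44.5% labelled at the start, 43.5% at 40 min, 41.2% after 1 h and 33.2% after 2 h. At 2 h TXNIP kept 45.9% of its 0 h share, where the median of 9401 genes kept 82.4%, and 5.6% of genes kept less. Unlabelled TXNIP reads, made after or before the pulse or missed by the conversion call, stood at 146.6, 137.9, 118.0, 144.1, 231.0, 251.4 and 232.4 CPM. Their step lay between 1 h and 2 h, after which they stayed between 231.0 and 251.4 CPM, and labelled reads in the same interval went from 152.6 to 88.5 CPM.

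**Figure D1:**
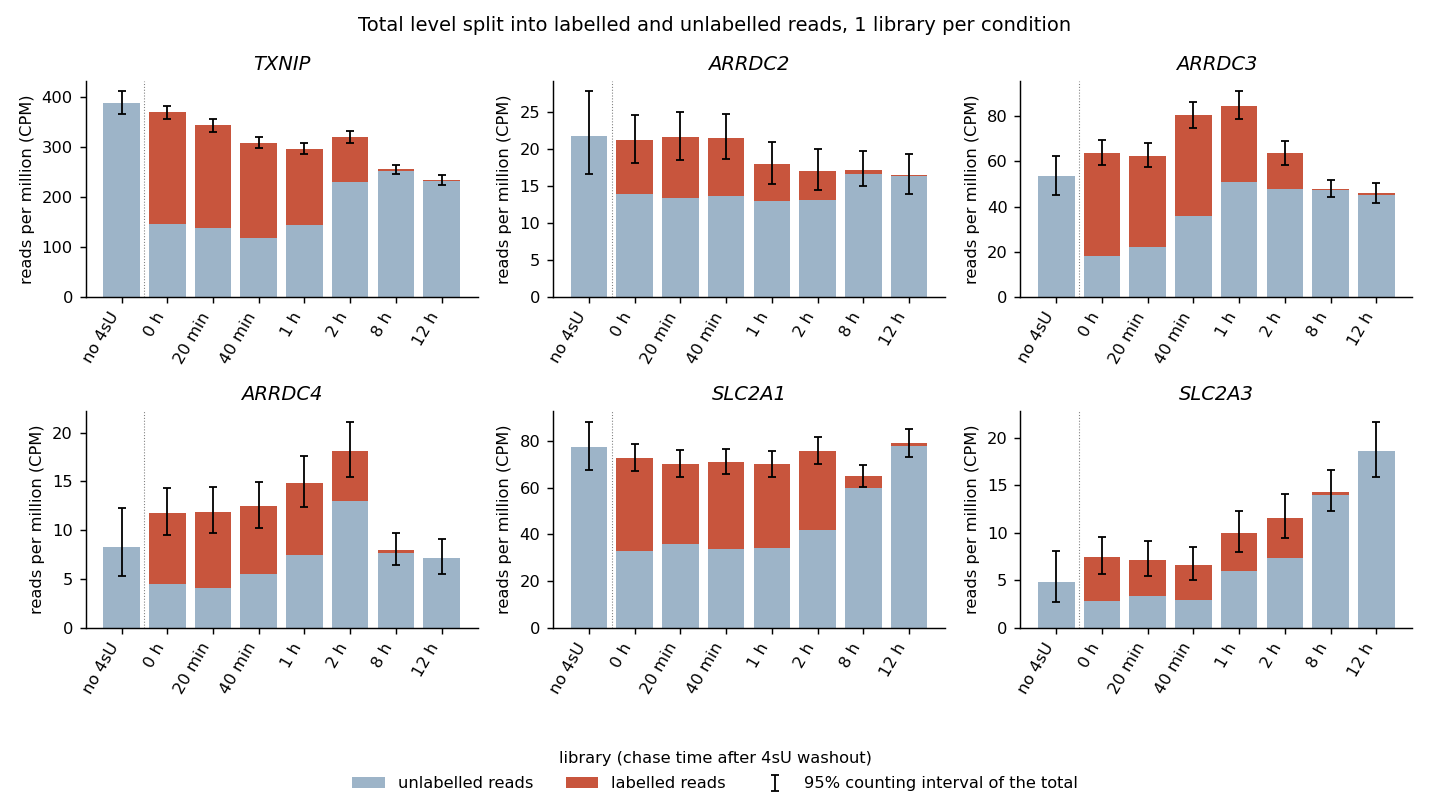
Level of each gene (CPM, y axis) in each of the 8 libraries (x axis). Bars are split into unlabelled (blue) and labelled (red) reads and whiskers are 95% counting intervals of the total. TXNIP is lowest at 12 h (234.8 CPM), ARRDC3 peaks at 1 h (84.7 CPM), ARRDC4 at 2 h (18.1 CPM) and SLC2A3 at 12 h (18.6 CPM).

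ARRDC3 encodes an α-arrestin known for directing β-adrenergic receptors and integrin β4 to degradation. Its counts come from ENST00000265138 (hg19 chromosome 5, start 90664541, minus strand). The total level was 53.4 CPM without 4sU, and 63.6, 62.6, 80.4, 84.7, 63.8, 48.0 and 45.9 CPM in the chase. The gene thus stood above its 0 h level at 40 min and 1 h, back at it at 2 h, and below it at 8 h and 12 h. The excess at 1 h was 1.33-fold (log2 0.41, 95% counting interval 0.25 to 0.58).

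The label left ARRDC3 early. Labelled reads were 71.2%, 64.8%, 55.4%, 39.6%, 25.1%, 0.85% and 1.23% of its reads. The last pair rests on 5 labelled reads each, so that no order between 8 h and 12 h can be read. At 1 h ARRDC3 kept 55.6% of its 0 h share, against 95.8% for the median gene, and 1.32% of 9401 genes kept less. Unlabelled reads stood at 18.3, 22.1, 35.8, 51.1, 47.7, 47.6 and 45.4 CPM, with the maximum at 1 h. They were then 2.79-fold above 0 h (log2 1.48, 95% counting interval 1.21 to 1.76), and 99.1% of 9403 genes had a lower ratio. Labelled ARRDC3 reads stood at 45.3, 40.6, 44.5, 33.5, 16.0, 0.41 and 0.56 CPM. At 40 min they were at 0.98 times and at 1 h at 0.74 times their 0 h level (log2 -0.43, 95% counting interval -0.66 to -0.21 at 1 h).

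ARRDC4, like TXNIP a glucose-responsive α-arrestin, was measured on ENST00000268042 (hg19 chromosome 15, start 98514418, plus strand) with 63 to 163 reads in a chase library. Its total level was 8.28 CPM without 4sU, and 11.7, 11.9, 12.4, 14.8, 18.1, 7.97 and 7.11 CPM in the chase. The 2 h library was the highest, 1.55-fold above 0 h (log2 0.63, 95% counting interval 0.26 to 1.01), and the 12 h library the lowest. Unlabelled reads, where the design places RNA made after the washout, carried the 2 h maximum. They stood at 4.43, 4.01, 5.46, 7.42, 13.0, 7.64 and 7.11 CPM. Labelled reads were at 7.30, 7.90, 6.99, 7.42, 5.12, 0.33 and 0 CPM. The labelled share was 62.2%, 66.3%, 56.1%, 50.0%, 28.2% and 4.08% up to 8 h. No labelled read was counted among 63 at 12 h, which allows a share of up to 4.76%.

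ARRDC2 was the α-arrestin with the flattest course. It was measured on ENST00000222250 (hg19 chromosome 19, start 18123776, plus strand). The total level was 21.7 CPM without 4sU, and 21.2, 21.6, 21.5, 17.9, 17.0, 17.2 and 16.5 CPM in the chase. Its labelled share began lower than that of the other 5 genes, at 33.9% at 0 h (95% exact binomial interval 27.0% to 41.4%), and then was 37.7%, 36.5%, 27.4%, 22.9%, 3.3% and 0.68%. Unlabelled ARRDC2 reads stayed between 13.0 and 16.7 CPM over the whole chase.

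SLC2A1 had the most even level and the longest half-life of the 6 genes. It was measured on ENST00000426263 (hg19 chromosome 1, start 43391052, minus strand). The total level was 77.6 CPM without 4sU, and 72.7, 70.3, 71.1, 70.2, 75.8, 64.9 and 79.1 CPM in the chase. All libraries thus lay within 1.22-fold of each other. Scaling by the plain library total turned the 8 h value from below to just above the 0 h level (log2 0.03 in place of -0.16), since under that scaling the median of all genes moved by 0.19 at 8 h and 0.15 at 12 h on the log2 scale. Labelled reads were 55.1%, 49.0%, 52.8%, 51.1%, 44.6%, 7.39% and 1.71% of SLC2A1 reads. At 2 h SLC2A1 kept 81.0% of its 0 h share, near the 82.4% of the median gene.

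SLC2A3 was the gene whose level went up. It was measured on ENST00000075120 (hg19 chromosome 12, start 8071826, minus strand), and its coding sequence has a near-identical copy in SLC2A14, so that the counts are uncertain where the authors' counting could split reads between the copies. SLC2A3 had 62, 60, 60, 87, 104, 176 and 165 reads in the chase and 14 without 4sU. The total level was 4.83 CPM without 4sU, and 7.42, 7.08, 6.55, 9.93, 11.6, 14.3 and 18.6 CPM in the chase. The libraries from 1 h on all lay above those up to 40 min, and the 12 h library was 2.51-fold above 0 h (log2 1.33, 95% counting interval 0.90 to 1.77). Of the 6 genes SLC2A3 alone passed 2-fold in total level in a chase library, and it did so at 12 h, where 6.63% of 10644 genes stood at least 2-fold above 0 h. SLC2A14 itself had 11 to 29 reads in the chase libraries and stood at 2.27 CPM at 0 h and 1.24 CPM at 12 h.

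The increase of SLC2A3 lay in its unlabelled reads, where the design places RNA made after the washout. They stood at 2.75, 3.30, 2.95, 5.93, 7.35, 13.9 and 18.6 CPM. The 12 h value was 6.77-fold above 0 h (log2 2.76, 95% counting interval 2.12 to 3.46), and 98.9% of genes had a lower ratio. Labelled reads stood at 4.67, 3.78, 3.60, 3.99, 4.23 and 0.41 CPM up to 8 h, and no labelled read was found among 165 at 12 h, which allows a share of up to 1.82%. The labelled share was 62.9%, 53.3%, 55.0%, 40.2%, 36.5% and 2.84% up to 8 h.

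**Figure D2:**
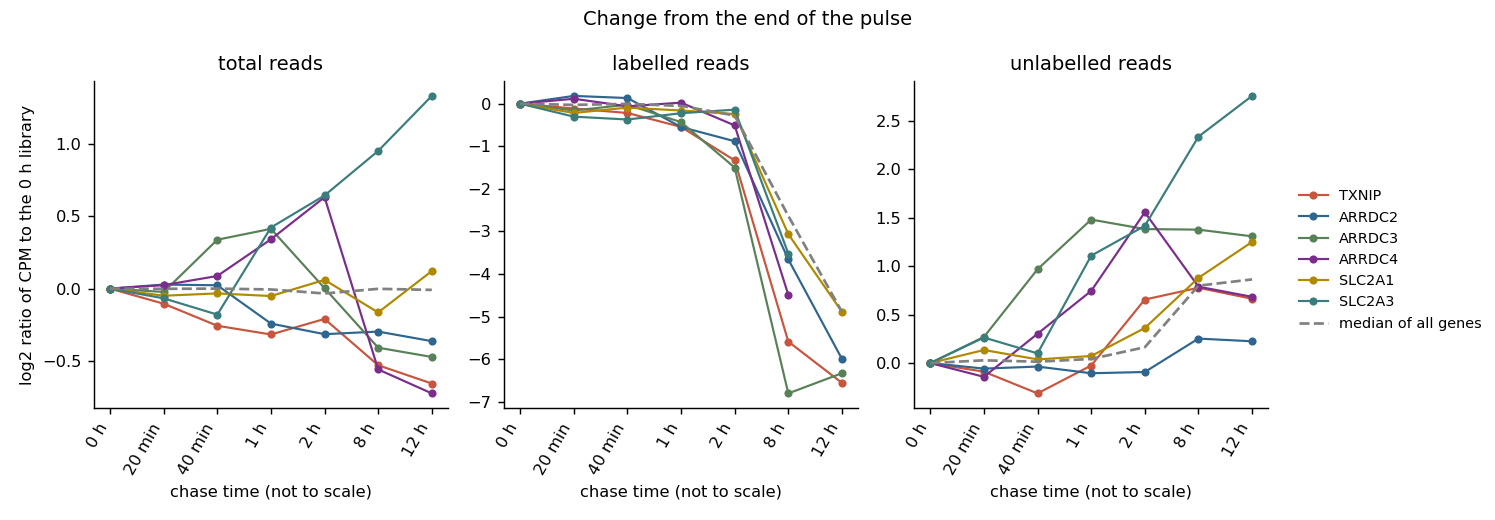
Log2 ratio of CPM to the 0 h library (y axis) for total, labelled and unlabelled reads at each chase time (x axis, not to scale), with the median of all genes dashed. Points with no labelled read are left out. SLC2A3 ends at 1.33 in total level, and ARRDC3 leads the unlabelled panel at 1 h with 1.48.

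The unlabelled reads of the 6 genes separated early. At 1 h ARRDC3 and SLC2A3 stood at least 2-fold above 0 h, as did 2.91% of 9403 genes. At 2 h ARRDC3, ARRDC4 and SLC2A3 did so, 3 of the 6, against 9.95% of genes. At 8 h the background had grown to 40.9%, with ARRDC3 and SLC2A3 past 2-fold, and at 12 h to 43.3%, with ARRDC3, SLC2A1 and SLC2A3 past it. The late counts of these genes were therefore near the share of all genes. TXNIP reached 1.58-fold at 2 h and ARRDC2 stayed at 0.94-fold, where the median gene stood at 1.12-fold.

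Trends of the total level over the 7 chase libraries were tested in edgeR, with calls at a Benjamini-Hochberg adjusted p under 0.05 over 10644 genes. Changes in these trends are slopes of a fitted line, given as log2 per 12 h, and not ratios of the 12 h to the 0 h library. TXNIP, ARRDC3 and ARRDC4 fell, 3 of the 6, where 23.7% of all genes fell. SLC2A3 rose, 1 of the 6, where 27.6% of all genes rose. The median of the 6 was -0.40 on the log2 scale over 12 h, and that of all genes 0.03. TXNIP fell by 0.51 ± 0.09 (SE) on the log2 scale over 12 h (edgeR adjusted p = 0.000918) and ARRDC3 by 0.69 ± 0.17 (edgeR adjusted p = 0.00551). SLC2A3 rose by 1.32 ± 0.23 (edgeR adjusted p = 0.000613). ARRDC2 had -0.29 ± 0.16 (edgeR adjusted p = 0.148) and SLC2A1 0.09 ± 0.10 (edgeR adjusted p = 0.481), neither past the threshold.

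The fall of ARRDC4, by 0.97 ± 0.30 (edgeR adjusted p = 0.0172), is a straight line through levels that first went up and then down. Without the 12 h library its adjusted p was 0.154 and without the 8 h library 0.0637, and over 12 alternatives it ranged from 0.0042 to 0.154. In the 5 libraries from 0 h to 2 h alone ARRDC4 rose, at a rate of 4.24 log2 per 12 h (edgeR adjusted p = 0.0444). In these 5 libraries the lines of TXNIP (adjusted p = 0.305), ARRDC3 (0.883) and SLC2A3 (0.112) did not pass in edgeR, and the line of ARRDC3 pointed upward. The highest adjusted p of these 3 genes over the other 11 alternatives was 0.0418, for ARRDC3 without the 12 h library.

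The label declined in all 6 genes (edgeR, labelled reads against hours with the gene's own total as offset), which is the common case, as 95.3% of 9403 genes declined. The fitted slope of the labelled share, as log2 per 12 h, was -7.81 ± 0.55 (SE) for ARRDC3, -6.86 ± 0.39 for TXNIP and -6.85 ± 0.56 for SLC2A3. It was -6.64 ± 0.64 for ARRDC4, -5.34 ± 0.50 for ARRDC2 and -4.80 ± 0.36 for SLC2A1. These are slopes of a line and not ratios of the 12 h to the 0 h library. With single libraries left out, the slope of ARRDC3 ran from -9.602 to -6.245 and that of TXNIP from -7.91 to -6.104. Without the 8 h library ARRDC4 (-7.727) and SLC2A3 (-6.976) were steeper than ARRDC3 (-6.245), so the place of ARRDC3 as steepest rests on that library. The largest edgeR adjusted p among the 6 genes was 4.96e-10, for ARRDC4. Over 0 h to 2 h alone the decline of SLC2A1 did not pass (edgeR adjusted p = 0.097, from 2.59e-39 to 0.097 over 13 alternatives), and the other 5 did. By 2 h the shares of TXNIP, ARRDC3 and ARRDC4 had dropped at least 2-fold, 3 of the 6 against 7.96% of 9401 genes. By 8 h this held for all 6 genes and for 84.1% of genes, and by 12 h for all 6 and for 93.1%.

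**Figure D3:**
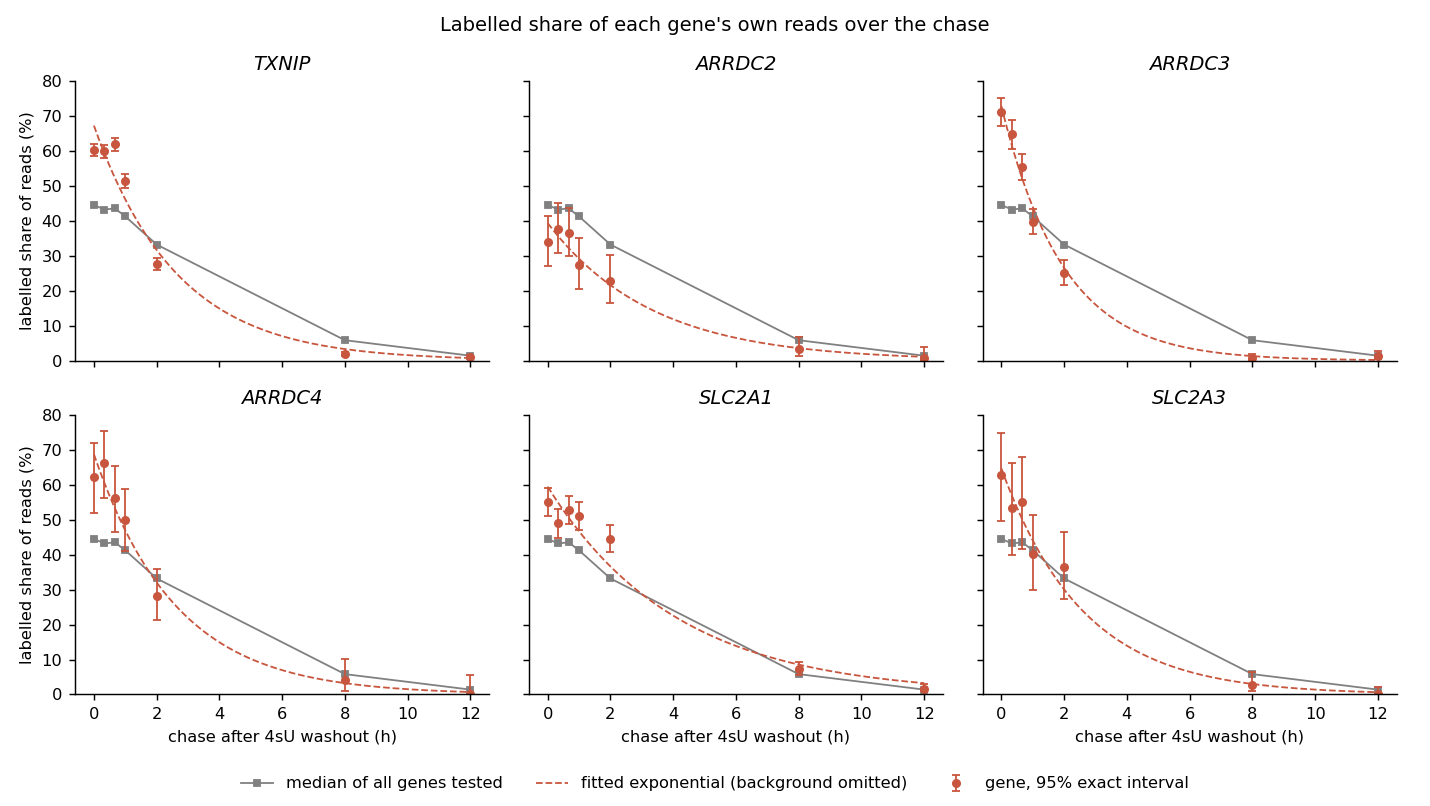
Labelled share of each gene's own reads (percent, y axis) against hours of chase (x axis), with 95% exact intervals, the fitted exponential (dashed) and the median of all genes (grey squares). ARRDC3 runs from 71.2% at 0 h to 25.1% at 2 h and crosses below the median gene by 1 h, while SLC2A1 lies above it at each time.

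Half-lives of the labelled share were fitted for each gene as an exponential over a background. They count dilution by new unlabelled reads as loss, so they are not decay rates of the RNA where the total level moves. ARRDC3 had 1.37 ± 0.20 h (SE, 95% interval 1.04 to 1.81), SLC2A3 1.81 ± 0.20 h (1.46 to 2.24), ARRDC4 1.82 ± 0.23 h (1.41 to 2.34), TXNIP 1.84 ± 0.30 h (1.34 to 2.52), ARRDC2 2.31 ± 0.28 h (1.82 to 2.92) and SLC2A1 2.86 ± 0.39 h (2.19 to 3.74). The median of 8832 genes with a resolved half-life was 2.72 h, and 1.42% of them were shorter than ARRDC3, 11% shorter than TXNIP and 54.0% shorter than SLC2A1. No neighbours in this order differed beyond their intervals. Among all 15 pairs the 95% interval of the ratio lay above 1 for SLC2A1 against ARRDC3 (2.08-fold, 1.42 to 3.07), SLC2A3 (1.58-fold, 1.12 to 2.23), ARRDC4 (1.58-fold, 1.09 to 2.28) and TXNIP (1.56-fold, 1.03 to 2.35), and for ARRDC2 against ARRDC3 (1.68-fold, 1.17 to 2.42).

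The half-lives of SLC2A3, SLC2A1 and ARRDC2 moved out of their intervals under some settings. With labelled CPM in place of the labelled share, SLC2A3 moved to 2.39 h, and the other 5 genes stayed within their intervals. In the 0 h to 2 h libraries alone SLC2A1 had 7.87 h, ARRDC2 3.04 h and SLC2A3 2.44 h. TXNIP was fitted poorly by an exponential, with a scatter of 49.1 times the binomial variance against 3.74 for the median gene. That scatter was not adjusted for read depth, and TXNIP had a mean of 2790.7 reads per chase library. By the same measure SLC2A1 had 8.93 (664.3 reads) and ARRDC3 7.89 (587.3 reads). ARRDC2 had 0.98 (175.0 reads), ARRDC4 1.2 (109.6 reads) and SLC2A3 0.94 (102.0 reads). The part of depth in the TXNIP value was not tested. The TXNIP half-life was 2.12 h over 0 h to 2 h and 1.5 h over 1 h to 12 h.

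The share labelled at 0 h and the T content of the transcript end can be set side by side, since a read can convert only where it holds a T. The last 250 bases held 45.6% T in ARRDC3, 38% in ARRDC4, 36.4% in TXNIP, 30.4% in SLC2A3, 29.2% in SLC2A1 and 22.4% in ARRDC2, with a median of 32.0% over 9266 genes. The labelled shares at 0 h were 71.2%, 62.2%, 60.3%, 62.9%, 55.1% and 33.9% in the same order. The gene with most T had the highest share and the gene with least T the lowest. Between them the order differed, as SLC2A3, with T below the median, had a higher share than ARRDC4 and TXNIP. The part of T content in the shares was not tested. The ends are those of GENCODE 29 on GRCh38 and need not be the ends used in these cells.

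The genes around these 6 in the pathway were read from 6 lists. Of the factors that act on the carbohydrate response element, MLXIPL rose (1.07 ± 0.20, edgeR adjusted p = 0.00107), MLX fell (-1.06 ± 0.12, edgeR adjusted p = 3.77e-05) and MLXIP had 0.26 ± 0.11 (edgeR adjusted p = 0.0692). MLX, the shared partner, stood at 86.5 CPM at 0 h and 42.4 CPM at 12 h, and MLXIP at 60.3 and 71.2 CPM. The label of all 3 declined, with half-lives of 2.08 h for MLXIP, 2.63 h for MLXIPL and 3.16 h for MLX.

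In the thioredoxin list, TXN, TXN2 and TXNRD1 fell, 3 of 4 tested, and none rose, where 23.7% of all genes fell and 27.6% rose. TXN encodes cytosolic thioredoxin, the binding partner of TXNIP, and went from 547.2 CPM at 0 h to 385.5 CPM at 12 h. Its label did not decline: 19.4% of TXN reads were labelled at 0 h and 20.1% at 12 h (edgeR adjusted p = 0.848), and no half-life was resolved. TXN2, the mitochondrial form, went from 259.3 to 190.3 CPM and had a half-life of 5.49 h. The fitted slopes of the total level were -0.51 ± 0.09 for TXNIP and -0.50 ± 0.07 for TXN, as log2 per 12 h. The 12 h to 0 h log2 ratios were -0.654 (95% counting interval -0.735 to -0.573) for TXNIP and -0.505 (-0.57 to -0.441) for TXN. Their labels behaved unlike each other. Neither the falls nor the labels of these genes were tested against each other.

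Of the other arrestins, 3 were tested and the label of all 3 declined, as in 95.3% of all genes. ARRB2, which encodes β-arrestin 2, rose (0.59 ± 0.07, edgeR adjusted p = 5.66e-05) from 179.7 CPM at 0 h to 255.0 CPM at 12 h with a half-life of 4.69 h. Without 4sU it stood far lower, at 13.45 CPM. ARRDC1 had a half-life of 4.53 h (95% interval 2.59 to 7.92). Its level was 44.13 CPM without 4sU and 8.37 CPM at 0 h. Among NEDD4-family ligases, the enzymes that α-arrestins recruit, 7 of 9 were tested and the label of all 7 declined. WWP1 (0.68 ± 0.15) and WWP2 (0.64 ± 0.14) rose and none fell. Both counts are near the shares of all genes, of which 95.3% had a called decline of the label and 27.6% rose. WWP2 stood at 48.3 CPM at 0 h and 61.0 CPM at 12 h, and WWP1 at 23.2 and 41.0 CPM. The 7 half-lives ran from 1.82 h to 2.79 h with a median of 2.42 h.

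Of 12 other facilitative glucose transporter genes 9 had reads and 7 were tested for total level. SLC2A6, which encodes the lysosomal GLUT6, rose by 0.76 ± 0.14 (edgeR adjusted p = 0.000761) from 79.9 CPM at 0 h to 124.9 CPM at 12 h, and was at 2.41 CPM without 4sU. SLC2A14, the copy of SLC2A3, fell (-0.98 ± 0.38, edgeR adjusted p = 0.0493). SLC2A5, which encodes the fructose transporter GLUT5, had the most reads of this list, at 99.0 CPM at 0 h and 84.3 CPM at 12 h, and did not pass (edgeR adjusted p = 0.101). Of the enzymes that act on glucose after its entry, HK1, HK2 and PFKFB3 rose, 3 of 4 tested, and none fell, against 27.6% and 23.7% of all genes. HK2 rose by 1.47 ± 0.21 (edgeR adjusted p = 0.00017), from 5.74 CPM at 0 h to 14.9 CPM at 12 h, next to 18.3 CPM without 4sU. HK1 stood at 25.6 CPM at 0 h and 34.8 CPM at 12 h. PFKFB3, which makes the activator of phosphofructokinase, went from 44.0 to 81.3 CPM with a half-life of 1.75 h, and its label share, 63.9% at 0 h, was 33.8% at 2 h.

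**Figure D4:**
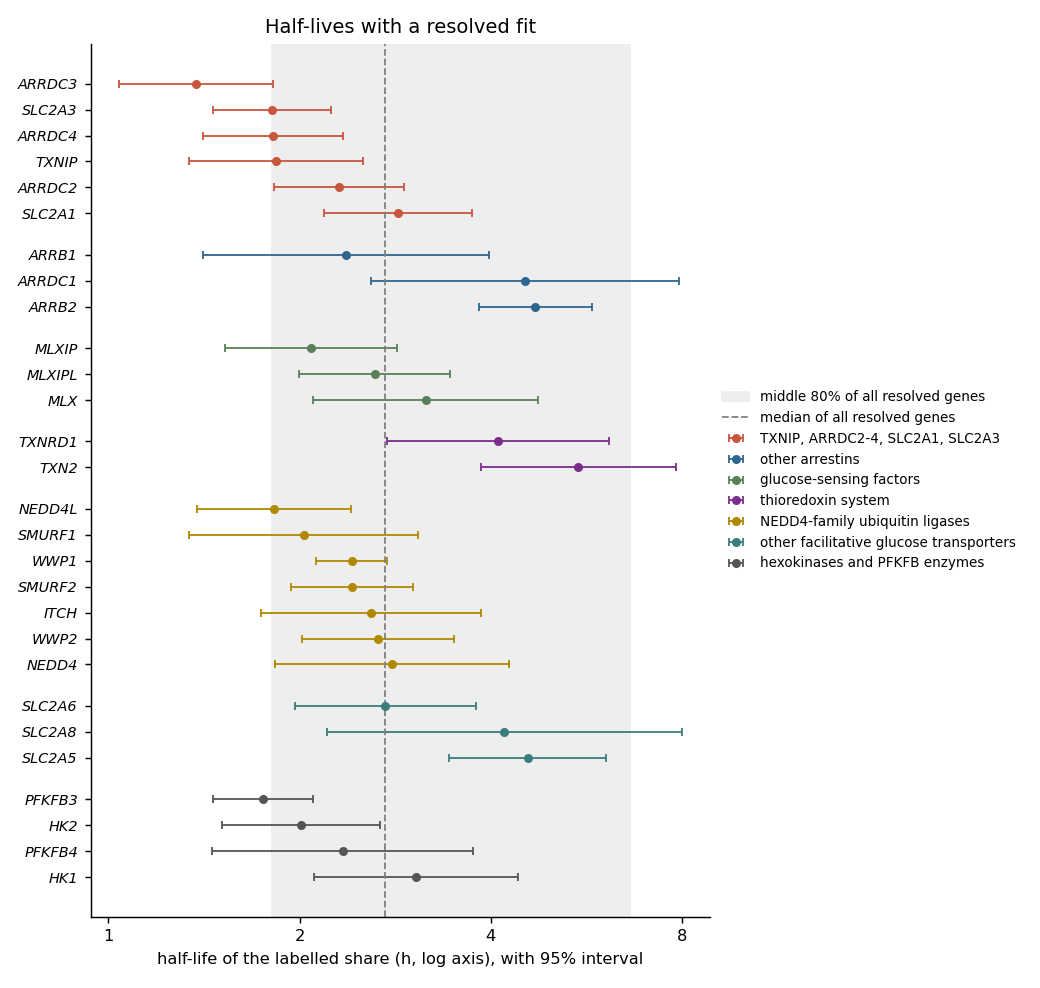
Half-life of the labelled share (hours, log axis) of each gene with a resolved fit, with 95% intervals, for the 6 genes (top, red) and the 6 lists. The grey band spans the middle 80% of resolved genes and the dashed line their median of 2.72 h; ARRDC3 at 1.37 h lies left of the band.

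Likeness in the course of the total level was measured over the 7 chase libraries as the root mean square difference of mean-centred log2(CPM + 1), among 9412 genes. The genes most like TXNIP were PLPPR2 (0.029), POPDC3 (0.0323), MPDU1 (0.0355), PSMB10 (0.0448) and MAZ (0.0474), where the median gene had 0.267. The closest to ARRDC2 were PTPN7 and NFKBIE (0.0531 and 0.0542), to ARRDC3 MTERF1 and ZSCAN32 (0.0793 and 0.0823), to ARRDC4 RRP12 and KIAA0232 (0.0678 and 0.081), to SLC2A1 TIMP1 and PKNOX1 (0.0321 and 0.0345), and to SLC2A3 NAMPT and RAB28 (0.0828 and 0.115). Some of these had few reads, with means of 229.7 for PLPPR2, 73.6 for POPDC3 and 156.0 for PKNOX1. At such depth counting error in 1 library exceeds the distances given for them. The closest of 9412 genes can therefore be chance matches, which was not tested. None of the 6 genes was among the closest of another. TXNIP was 0.138 from ARRDC2, 0.252 from ARRDC3 and 0.302 from ARRDC4. The distance of 0.302 between TXNIP and ARRDC4 was above the median gene's distance from TXNIP (0.267) and below the median gene's distance from ARRDC4 (0.425).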

How the data were processed

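The authors deposited counts of all reads and of converted reads per 3′ UTR segment (QuantSeq 3′ FWD libraries, S2 spike-in of 5%, per the labels' protocols). The builds hg19 and dm3 and the tools bcl2fastq 2.17.1.14 and Trim Galore 0.6.5 are from the submitters' processing notes. Aligner, counting tool and conversion threshold: not given in the sources used here. Labelled shares depend on that threshold. The labels name no molecular identifiers, and counting intervals cover counting error only.

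Transcript identifiers were named with GENCODE 29 (48045 of 56570 transcripts; 5.63% of counts lay in unnamed segments), segments off the main chromosomes and 88 genes with counts equal to another gene were left out, and each gene took its most covered segment. The 6 genes each had 1 distinct segment with reads. The files do not state whether segment starts count from 0 or 1. Levels are CPM scaled by TMM. Trends were fitted with edgeR 4.0.16 in R 4.3.3 (quasi-likelihood, 7 chase libraries, 5 residual degrees of freedom). Genes entered the total trend with a mean of 20 reads, and the label trend with a mean of 50 reads and 20 labelled reads in all. The p-values measure scatter of single libraries about a line in hours, which may be technical. Half-lives are binomial maximum-likelihood fits, with a background shrunk by 100 prior reads and errors widened where scatter exceeded the binomial variance. They count as resolved with a called decline, 10 fitted labelled reads at 0 h, a log-rate standard error no larger than 0.5 and a value of 0.25 h to 24 h. Both methods were tested on simulated data. The simulated half-lives had binomial counts about an exact exponential, so extra scatter such as that of TXNIP was not covered. Alternatives included DESeq2 1.42.0.

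The genes and lists were chosen with earlier results of these data known. Besides the 6 genes, values are given for the 2 genes of each list with the most reads and for the closest genes in course (mean of at least 50 reads, pseudocount 1, 5 for TXNIP and 2 for each of the others). The RefSeq promoter table (GRCh38.p14) matched 5 of the 6 genes, all but SLC2A3. Of genes tested for label, 98.5% had an annotated 3′ UTR. MLXIPL, SLC2A14, HK2, TXNRD1 and LYZ were singled out after their values were seen. Spike-in reads were not used.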

Additional observations from a re-analysis of the deposited data

How the results depend on the processing

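Of 4 genes called for total level, the 0 h to 2 h libraries alone left 1, ARRDC4, whose slope reversed to 4.24 log2 per 12 h; the slope of ARRDC3 there was 0.39. The number called was 3 to 4 when single libraries were left out, and the slope of SLC2A1, not called, then ranged from -0.14 (without the 12 h library) to 0.18. Counts of members with a called label decline or a resolved half-life stayed at 5 or 6 under 13 alternatives each, 5 being the label declines over 0 h to 2 h. Scaling by the plain library total made 2 in place of 1 member-library pairs differ at least 2-fold from 0 h, SLC2A3 at 8 h being added. That scaling moved TXNIP at 8 h and 12 h and SLC2A1 at 8 h out of their counting intervals. It did the same to ARRDC3 at 8 h (log2 -0.22 in place of -0.41). Over 0 h to 2 h alone, 426 genes rose and 127 fell in total level, in place of 2933 and 2527; the cause was not tested beyond the fewer samples. No paired analysis was possible because each condition had 1 library. Depth limits ARRDC4 and SLC2A3 most, with 60 to 176 reads in a chase library.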
